A study of Mus musculus with 8 samples.

Results

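The genes described here were 10 immediate early response genes, Fos, Fosb, Jun, Junb, Atf3, Egr1, Klf6, Ier2, Dusp1 and Zfp36, followed over the day in the colonic epithelium of mice. They were chosen by name from the 14247 genes of the deposited table, and all 10 were in it. RNA was sequenced in bulk from colonic crypts of wild-type (WT) mice taken at 0, 6, 12 and 18 h of zeitgeber time (ZT), which counts from lights on, with 2 libraries for each of the 4 times. The mice were on a C57BL/6 background, a few months of age and kept in 12 h of light and 12 h of dark, and the labels give no transgene or treatment for any group. The study counts its groups in mice, and gives more mice per group than the 2 libraries held here for each time. The labels describe the libraries as separate samples and do not say whether each came from 1 mouse. The p-values therefore measure only the spread between these samples, which may be technical. Crypts were released from the opened colon by EDTA in the cold and scraped off before RNA was extracted.

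Immediate early genes are switched on within minutes of a stimulus, without new protein synthesis, by kinase cascades that act on factors already bound at their promoters, and their mRNAs are short-lived. FOS and JUN proteins pair to form AP-1, ATF3 belongs to the ATF/CREB family that can pair with them, and DUSP1 and ZFP36 act back on the response, DUSP1 by dephosphorylating MAP kinases and ZFP36 by promoting decay of mRNAs. In the gut, these genes respond to growth factors, food, microbes and wounding, and they are also known to be induced when a tissue is taken apart for cell isolation. The question for these libraries was therefore whether their levels followed the time of day or varied between the libraries of a time point.

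Promoter stretches are shown because the genes varied together between libraries, as described further on, and so that the letters they share can be read. Egr1 was left out of the promoter search, and Ier2 had no promoter in the set used. RefSeq promoters, from 250 bases before to 50 bases after the annotated start, were taken for 8 of the 10 genes (GRCm38.p6). They were searched on both strands for the cAMP response element (CRE) TGACGTCA, its form with any base in the middle, TGACNTCA, its shorter core TGACG, the AP-1 site TGAGTCA, the EGR site GCGNGGGCG, the CArG box bound by SRF, and the E-box CACGTG bound by CLOCK and BMAL1, and on the gene's own strand for the TATA motif TATAAA. A CRE also holds the core and counts as TGACNTCA. The 5 stretches below, written 5′ to 3′ on the gene's strand with matches in capitals, hold the matches longer than the core upstream of Jun, Dusp1, Klf6 and Zfp36, and the pair of cores and the TATA motif upstream of Fos.
Fos, chr12:85473751-85473872, plus strand: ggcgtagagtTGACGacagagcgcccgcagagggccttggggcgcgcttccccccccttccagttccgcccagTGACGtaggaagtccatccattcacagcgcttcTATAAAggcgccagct
Jun, chr4:95052250-95052277, minus strand: agcctcggggTGACATCAtgggctattt
Dusp1, chr17:26508583-26508673, minus strand: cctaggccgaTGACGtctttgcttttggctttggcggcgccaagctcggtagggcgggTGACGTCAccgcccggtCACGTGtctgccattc
Klf6, chr13:5861360-5861461, plus strand: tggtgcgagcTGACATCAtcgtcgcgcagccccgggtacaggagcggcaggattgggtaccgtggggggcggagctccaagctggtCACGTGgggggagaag
Zfp36, chr7:28379267-28379343, minus strand: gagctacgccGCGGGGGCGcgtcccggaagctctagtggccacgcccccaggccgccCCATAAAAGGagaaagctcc
The CRE was found in 1 of the 8 promoters, that of Dusp1, and in 1.79% of all 32807 RefSeq promoters. TGACNTCA was found in 3 of 8 (Jun, Dusp1 and Klf6) and in 8.84% of all promoters, and the core in 5 of 8 (Fos, Fosb, Junb, Atf3 and Dusp1) and in 20.8%. The E-box was found in 2 of 8 (Dusp1 and Klf6) and in 7.15% of all. The EGR site was present in 2 of 8 (Fosb and Zfp36, against 5.56%), the CArG box in 1 of 8 (Zfp36, against 1.63%), TATAAA in 2 of 8 (Fos and Junb, against 8.32%) and the AP-1 site in 0 of 8 (against 5.21%). These are matches of letters in a short window, not binding sites.

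Reads recovered per library ranged from 14722342 to 25159440, and the mitochondrial genome took from 6.68% to 22.2% of the counts. The 10 epithelial markers summed to between 286901 and 388191 normalised counts per library, where a normalised count is a read count divided by 1 size factor per library. Markers of other cells were low but uneven. The 7 smooth muscle markers in the table summed to 4146 in ZT12 replicate 1 and to between 210 and 687 in the other libraries, with Acta2, Des, Cnn1 and Actg2 at 0 in at least 1 library, and the 8 fibroblast markers summed to 2668 in ZT12 replicate 1 and 742 in ZT0 replicate 2, against 25.8 to 189 elsewhere. The 6 myeloid markers summed to 1320 and the 7 B and plasma cell markers to 2871 in ZT0 replicate 2, to 441 and 840 in ZT12 replicate 1, and to at most 139 and 286 in the others. The 5 endothelial markers summed to between 69.2 and 465, highest in ZT12 replicate 1, and the 8 T cell markers to between 14.9 and 240. Limma differences of ZT12 from ZT0 are given below for all 10 early response genes also without ZT12 replicate 1. Without that library, those of ZT18 from ZT12 are given for some genes and those of ZT12 from ZT6 only as a median. Some differences are also given without both libraries. Counts of genes at an unadjusted p or without overlap, counts of correlated pairs, DESeq2 calls and the values of other gene lists are given with all libraries only.

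In a mixed epithelial sample, fewer cells of a type and less RNA per cell cannot be told apart. On the scale of normalised counts per kilobase of exon, Fos stood highest of the 10 genes with a mean level of 1427 over the 8 libraries, above 95.9% of the tested genes with a length. It was followed by Ier2 (1163), Junb (1024), Klf6 (996), Jun (760), Atf3 (707), Zfp36 (400) and Dusp1 (225). Egr1 (63.5, above 44.1% of genes) and Fosb (25.6, above 26.1%) were the lowest. Apart from these last 2, each gene stood above at least 74.0% of the tested genes.

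Among the AP-1 subunits, Fos and Fosb differed from Jun in how they varied. Fos (ENSMUSG00000021250, chr12:85473890-85477273 in GRCm38), which encodes the principal partner of JUN, had 3432 and 3804 normalised counts in the ZT0 libraries (replicates 1 and 2), 4923 and 1738 in those of ZT6, 2164 and 3681 in those of ZT12 and 4103 and 3007 in those of ZT18. The highest and the lowest library of all 8 were the 2 libraries of ZT6, so that the ranges of all time points overlapped within that of ZT6. The log2 difference of ZT12 from ZT0 was -0.36 with a 95% interval of -1.34 to 0.63.

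Fosb (ENSMUSG00000003545, chr7:19302696-19310051), the FOS relative with the lowest level per kilobase of the 10 genes, had 126 and 109 normalised counts in the ZT0 libraries, 159 and 63.1 in those of ZT6, 83.3 and 115 in those of ZT12 and 343 and 278 in those of ZT18. Both ZT18 libraries stood above the other 6, whose ranges overlapped. The mean was 310 ± 45.5 (SD, n = 2) at ZT18 and 118 ± 12.03 at ZT0, and the log2 difference of ZT18 was 1.39 from ZT0 (95% interval 0.41 to 2.37), 1.61 from ZT6 (0.63 to 2.59) and 1.65 from ZT12 (0.67 to 2.63). None of these passed the limma test over all genes (adjusted p = 0.889, 0.61 and 0.514), and the unadjusted p values were 0.0107, 0.00468 and 0.00418. The fewest reads behind a Fosb value were 58, at which counting error alone had an SD of 0.19 on the log2 scale.

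Jun (ENSMUSG00000052684, chr4:95049034-95052222), which can pair with itself or with a FOS protein, had 3100 and 2718 normalised counts in the ZT0 libraries, 2438 and 2163 in those of ZT6, 1463 and 1936 in those of ZT12 and 2973 and 2607 in those of ZT18. The ZT12 libraries were the lowest 2 of the 8, the ZT6 libraries came next, and the ranges of ZT0 and ZT18 overlapped. The mean was 1700 ± 334 at ZT12 against 2909 ± 270 at ZT0 (SD, n = 2). The log2 difference was -0.79 (95% interval -1.21 to -0.36), with a limma adjusted p of 0.327 and an unadjusted p of 0.00239. Junos, an RNA of the opposite strand that is also in the table, overlaps Jun, and as the use of strand in the counting is not stated, reads of the pair may not be separated.

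Junb (ENSMUSG00000052837, chr8:84974484-84978718), which encodes a JUN relative, had 2264 and 1960 normalised counts in the ZT0 libraries, 2687 and 2461 in those of ZT6, 2024 and 2697 in those of ZT12 and 2115 and 2636 in those of ZT18. Its highest library held 1.38 times the counts of its lowest, and the ranges of all time points overlapped except those of ZT0 and ZT6. The log2 difference of ZT12 from ZT0 was 0.15 (95% interval -0.30 to 0.60). Junb overlaps Prdx2 on the opposite strand, which carries the same limit as for Jun.

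Atf3 (ENSMUSG00000026628, chr1:191170296-191218039), a stress-induced ATF/CREB factor, had 1404 and 1664 normalised counts in the ZT0 libraries, 1839 and 1247 in those of ZT6, 597 and 1241 in those of ZT12 and 2315 and 1880 in those of ZT18. Both ZT18 libraries were above the other 6, and both ZT12 libraries were below them, although ZT12 replicate 2 and ZT6 replicate 2 were nearly equal. The log2 difference of ZT18 from ZT12 was 1.28 (95% interval 0.53 to 2.02; limma adjusted p = 0.514, unadjusted p = 0.00367), and that of ZT12 from ZT0 was -0.83 (-1.57 to -0.08).

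Of the zinc finger factors Egr1 and Klf6, Egr1 had the smaller spread between libraries and the larger one between time points. Egr1 (ENSMUSG00000038418), a growth factor-induced activator, had 367 and 423 normalised counts in the ZT0 libraries, 394 and 315 in those of ZT6, 173 and 197 in those of ZT12 and 223 and 187 in those of ZT18. All 4 libraries of the resting phase (ZT0 and ZT6) were above all 4 libraries of the active phase (ZT12 and ZT18), and within each phase the ranges overlapped. The resting phase means were 395 ± 39.6 (ZT0) and 355 ± 55.7 (ZT6), and the active phase means 185 ± 16.9 (ZT12) and 205 ± 25.7 (ZT18) (SD, n = 2). The log2 difference of ZT12 from ZT0 was -1.09 (95% interval -1.63 to -0.54) and that of ZT18 from ZT0 was -0.94 (-1.49 to -0.40). With limma neither passed the adjustment over all genes (adjusted p = 0.289 and 0.674), at unadjusted p of 0.0015 and 0.00349. A cosine of 24 h fitted to Egr1 had its peak at 2.39 h and an amplitude (peak height above the mean) of 0.67 on the log2 scale (limma adjusted p = 0.216, unadjusted p = 0.000539), the smallest unadjusted p of the 10 genes.

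Klf6 (ENSMUSG00000000078, chr13:5861482-5870394), a Krüppel-like factor, had 4735 and 3627 normalised counts in the ZT0 libraries, 4758 and 3993 in those of ZT6, 3513 and 4383 in those of ZT12 and 5503 and 4473 in those of ZT18. The ranges of neighbouring time points overlapped except those of ZT12 and ZT18, and the log2 difference of ZT12 from ZT0 was -0.08 (95% interval -0.55 to 0.40). Ier2 (ENSMUSG00000053560, chr8:84661331-84662852), a nuclear protein that takes part in transcription, had 2113 and 1802 in the ZT0 libraries, 1820 and 1855 in those of ZT6, 1134 and 1570 in those of ZT12 and 2281 and 1589 in those of ZT18. Both ZT12 libraries were lower than the other 6, the nearest pair being ZT12 replicate 2 and ZT18 replicate 2, and the log2 difference of ZT12 from ZT0 was -0.55 (95% interval -1.06 to -0.04).

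Of the feedback genes, Dusp1 varied more between the libraries of a time point than Zfp36 (SD of 0.49 against 0.16 on the log2 scale). Dusp1 (ENSMUSG00000024190, chr17:26505590-26562128), the MAP kinase phosphatase, had 1153 and 582 normalised counts in the ZT0 libraries, 859 and 498 in those of ZT6, 393 and 580 in those of ZT12 and 956 and 949 in those of ZT18. The ZT18 libraries differed by 0.011 on the log2 scale and the ZT0 libraries by 0.99, and the interval of ZT12 from ZT0 reached from -1.59 to 0.04 around -0.78. Dusp1 overlaps Ergic1 on the opposite strand. Zfp36 (ENSMUSG00000044786, chr7:28376784-28380253), the mRNA decay factor, had 1226 and 1296 in the ZT0 libraries, 1655 and 1332 in those of ZT6, 1243 and 1530 in those of ZT12 and 1417 and 1400 in those of ZT18. Its highest library was 1.35 times its lowest, and the log2 difference of ZT12 from ZT0 was 0.13 (95% interval -0.28 to 0.54), which leaves out a change as large as that of Egr1 in either direction.

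**Figure D1:**
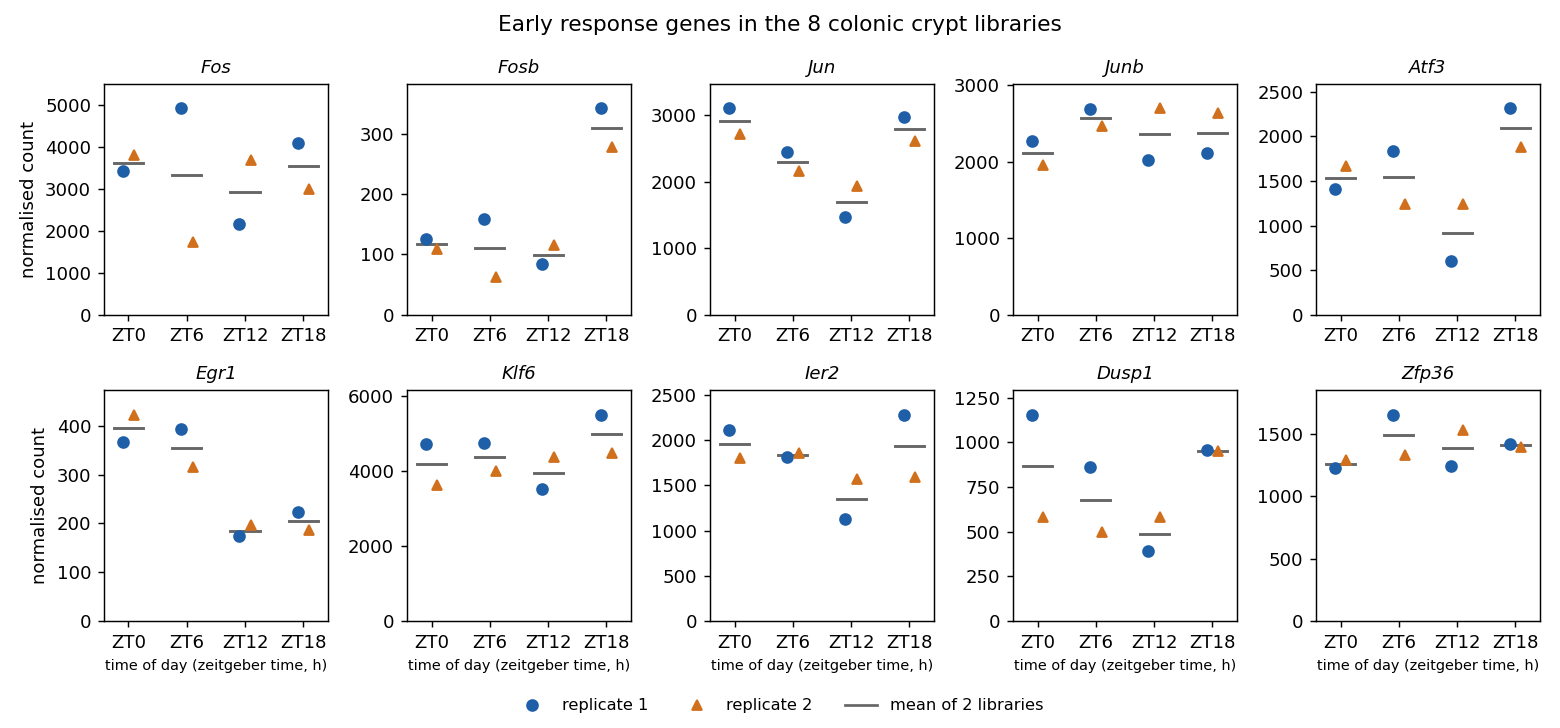
Normalised counts (vertical axes, starting at 0) of the 10 genes in each library against zeitgeber time (horizontal axes), with circles for replicate 1, triangles for replicate 2 and a bar for the mean of the 2 libraries. Egr1 separates ZT0 and ZT6 from ZT12 and ZT18, Fosb is high in both ZT18 libraries, and the ZT6 libraries of Fos, at 4923 and 1738, span all other values of that gene.

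Over the 4 time points, 0 of the 10 genes were called by the limma F-test (adjusted p under 0.05), where 0.0889% of the 13503 genes tested were called, and 0 of 10 by the 24 h cosine fit, where 0.118% were. At an unadjusted p under 0.05 the counts were 4 of 10 in the F-test (Egr1 at 0.0028, Jun at 0.00897, Fosb at 0.0121 and Atf3 at 0.0229), against 7.03% of all genes, and 3 of 10 in the cosine fit (Egr1, Jun and Fosb), against 9.15%. Both counts were made with ZT12 replicate 1 included. The fitted peaks fell at 22.7 h for Jun and 18.6 h for Fosb, with amplitudes of 0.42 and 0.82, and differences between peak times were not tested. With edgeR on the reads recovered from the values, 0 of 10 were called in either test, with 4 and 3 at an unadjusted p under 0.05. With DESeq2 2 genes were called over the 4 time points (Fosb, adjusted p = 0.0387; Egr1, 0.0189) and 1 in the cosine fit (Egr1, adjusted p = 0.00112). DESeq2 called 218 of all genes over the 4 time points, 1.61% of those given an adjusted p, and 189 in the cosine fit, 1.62%.

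Of the 6 comparisons between time points, the 10 genes were called in none by limma or edgeR, while the share of all genes called by limma was 0.0444% for ZT6, 0.0667% for ZT12 and 0% for ZT18, each against ZT0, then 0% for ZT12 and 0.0444% for ZT18 against ZT6, and 0.0296% for ZT18 against ZT12. DESeq2 called 2 for ZT12 against ZT0, Jun (log2 difference -0.78, adjusted p = 0.0331) and Egr1 (-1.09, adjusted p = 0.0319), where it called 137 of all genes, 1.26% of those given an adjusted p. It called 0 of the 10 in each of the other 5, where its share of all genes was 0.193% for ZT6 and 0.415% for ZT18 against ZT0, 0.332% for ZT12 and 0.541% for ZT18 against ZT6, and 0.755% for ZT18 against ZT12.

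At ZT12 against ZT0, 8 of 10 genes had a lower mean, with a median log2 difference of -0.45 against 0.01 over all genes. Jun, Egr1, Atf3 and Ier2 had an unadjusted limma p under 0.05, all lower, where 4.95% of all genes were lower at that p. For 5 genes both ZT12 libraries were below both ZT0 libraries (Jun, Egr1, Atf3, Ier2 and Dusp1), against 20.3% of all genes. For Dusp1 the nearest pair was nearly equal, at 580 in ZT12 replicate 2 and 582 in ZT0 replicate 2. At ZT12 against ZT6 all 10 genes had a lower mean (median -0.30), 3 with an unadjusted p under 0.05 (against 3.44% of all genes lower) and 4 without overlap (against 22.2%). At ZT18 against ZT12 all 10 had a higher mean (median 0.43, against -0.02 over all genes), 5 of them at an unadjusted p under 0.05 (Fosb, Atf3, Jun, Dusp1 and Ier2, against 4.32% of all genes higher) and 6 without overlap (against 17.8%). These 3 comparisons share the ZT12 libraries, so their counts are not separate pieces of evidence. The counts also include ZT12 replicate 1, without which the median log2 differences were -0.16, -0.083 and 0.23, in the same order.

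The other 3 comparisons were smaller or mixed. At ZT6 against ZT0, 3 genes were higher and 7 lower, 0 had an unadjusted p under 0.05 (4.13% of all genes did) and 3 did not overlap (37.6%). At ZT18 against ZT0, Fosb was higher and Egr1 lower at an unadjusted p under 0.05 (5.02% of all genes), and 4 genes did not overlap (27.5%). The same 2 genes had such a p at ZT18 against ZT6 (6.71% of all genes), where 5 did not overlap (38%).

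**Figure D2:**
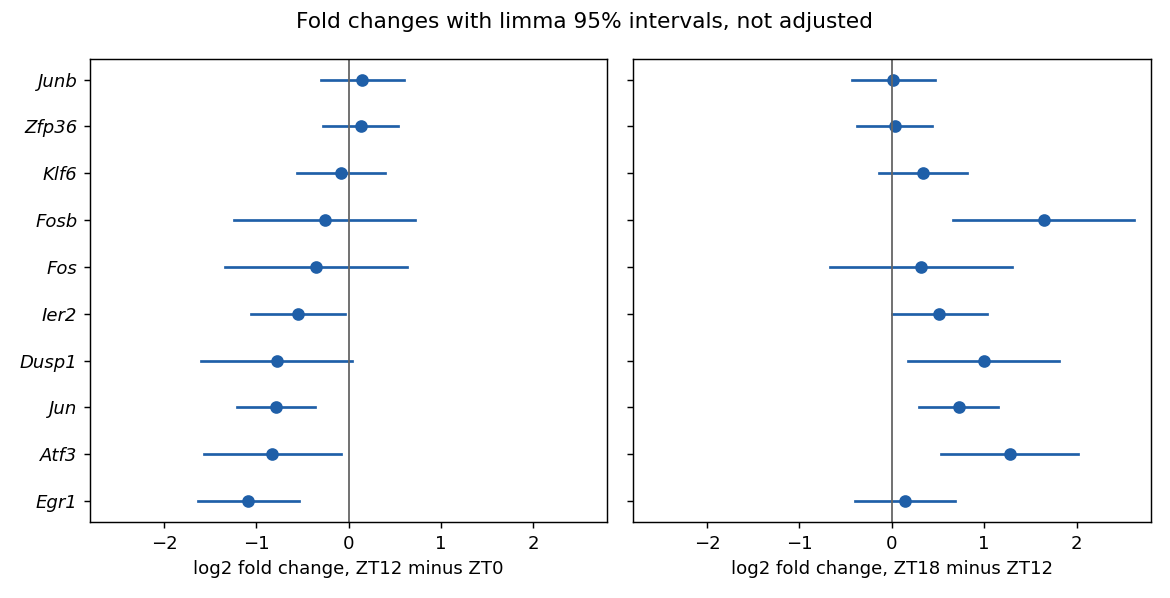
Log2 fold changes of the 10 genes (points) with limma 95% intervals, not adjusted for multiple tests (lines), for ZT12 minus ZT0 on the left and ZT18 minus ZT12 on the right; the vertical line marks no difference. Egr1 and Jun lie farthest from 0 relative to their intervals on the left, and Fosb, Atf3 and Jun on the right.

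The spread between the 2 libraries of a time point was set against the spread of the 4 time point means, both as an SD on the log2 scale. The means varied 3.13 times as much as the libraries for Egr1, 1.97 times for Jun, 1.53 times for Fosb and 1.20 times for Atf3. The ratio was 0.98 for Ier2, 0.89 for Dusp1, 0.64 for Klf6, 0.63 for Zfp36, 0.58 for Junb and 0.29 for Fos. The median ratio of the 10 genes was 0.93, against 0.76 over all genes tested, and the median SD between libraries was 0.24 against 0.29. Fos had the largest SD between libraries, 0.62, which was above that of 80.9% of all genes, although at least 1598 reads lay behind each of its values and counting error had an SD of at most 0.04. The largest differences between libraries of a time point were 1.50 for Fos and 1.32 for Fosb at ZT6, 1.05 for Atf3 at ZT12 and 0.99 for Dusp1 at ZT0.

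**Figure D3:**
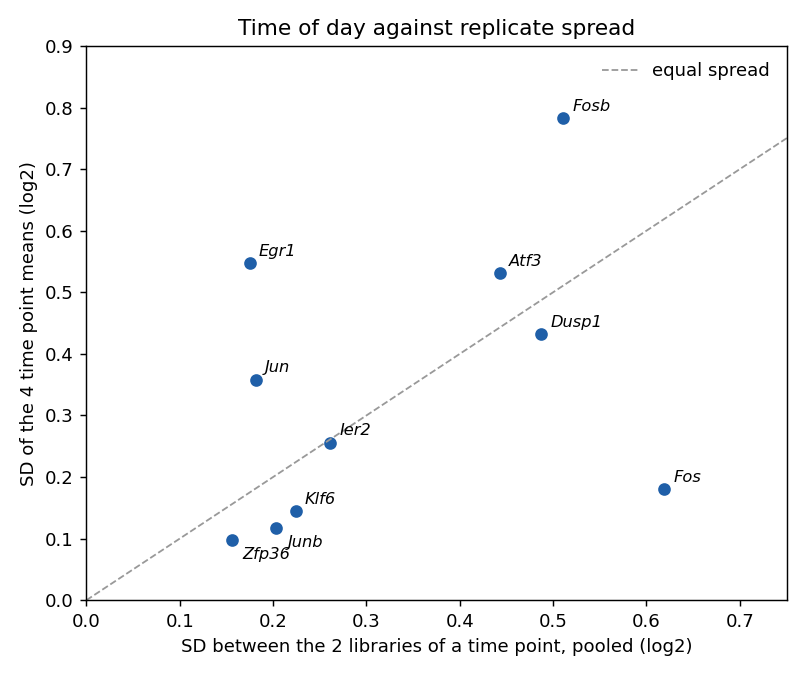
Each point is 1 of the 10 genes, placed by the pooled SD between the 2 libraries of a time point (horizontal axis, log2) and the SD of the 4 time point means (vertical axis, log2); the dashed line marks equal spread. Egr1 and Jun lie well above the line, and Fos, with 0.62 between libraries and 0.18 between means, far below it.

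Within a time point, the genes differed between the 2 libraries in a shared direction. All 10 were lower in replicate 1 than in replicate 2 at ZT12 (median log2 difference -0.44), 9 of 10 were higher in replicate 1 at ZT6 (median 0.32, all but Ier2) and 9 of 10 at ZT18 (median 0.28, all but Junb). At ZT0 replicate 1 was higher for 6 of 10 (median 0.20). Over all genes tested, replicate 1 was higher in 49.2% to 50.4% of genes at each time point. ZT12 replicate 1 was the lowest of the 8 libraries for 6 of the 10 genes (Jun, Egr1, Atf3, Ier2, Dusp1 and Klf6), and ZT18 replicate 1 the highest for 4 (Fosb, Atf3, Ier2 and Klf6). Relative to each gene's mean over the libraries, the median deviation was -0.62 in ZT12 replicate 1 and 0.35 in ZT18 replicate 1.

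**Figure D4:**
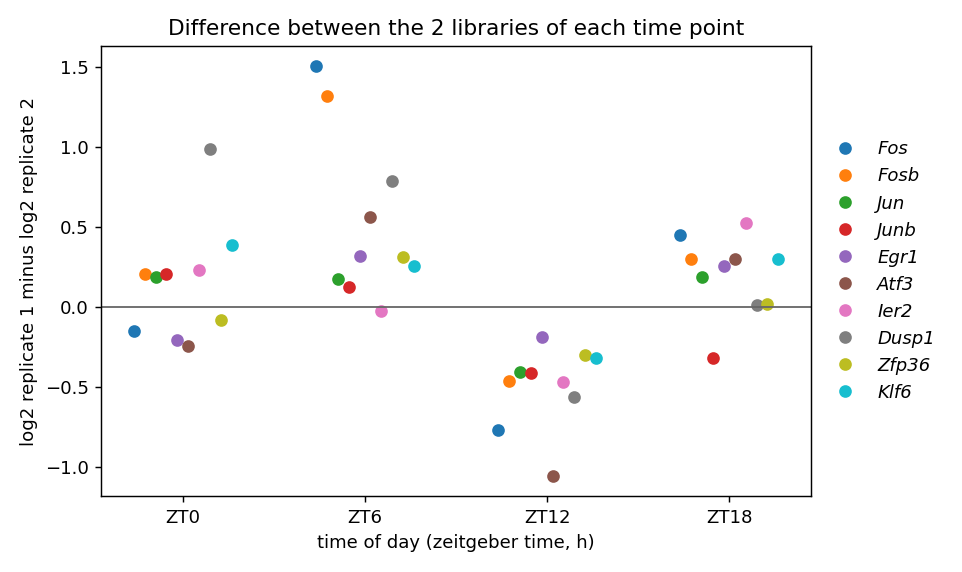
Log2 value in replicate 1 minus that in replicate 2 (vertical axis) for each of the 10 genes (colours) at each zeitgeber time (horizontal axis). At ZT12 all 10 points lie below 0, and at ZT6 and ZT18 9 of 10 lie above it.

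ZT12 replicate 1 was also the library with the most smooth muscle and fibroblast marker RNA and the smallest mitochondrial share, at 6.68%, while ZT12 replicate 2 had 7.85%, and the part of these in the result was not tested. Without ZT12 replicate 1, the lone ZT12 library being assumed to vary like the other groups, the genes lower at ZT12 than at ZT6 dropped from 10 to 5, those lower than at ZT0 from 8 to 6, and those lower than at ZT18 from 10 to 7. The median log2 difference of the 10 genes was then -0.16 from ZT0 to ZT12, -0.083 from ZT6 to ZT12 and 0.23 from ZT12 to ZT18. The log2 difference of ZT12 from ZT0 went from -0.83 to -0.30 for Atf3, from -0.55 to -0.31 for Ier2 and from -0.78 to -0.50 for Dusp1. It went from -0.36 to 0.027 for Fos, from -0.26 to -0.025 for Fosb and from -0.08 to 0.08 for Klf6. For Junb it went from 0.15 to 0.36 and for Zfp36 from 0.13 to 0.28. For Jun and Egr1 it was -0.58 and -0.99. With ZT0 replicate 2 left out as well, it was -0.68 for Jun and -0.89 for Egr1, and 7 of 10 genes were lower at ZT12 than at ZT0. The log2 difference of ZT18 from ZT12 was 1.41 for Fosb, 0.75 for Atf3, 0.71 for Dusp1, 0.52 for Jun and 0.28 for Ier2 without ZT12 replicate 1. Leaving out each of the 8 libraries in turn moved the difference of ZT12 from ZT0 between -1.27 and -0.28 for Dusp1. When each of the 8 libraries was left out in turn, the direction of ZT12 against ZT0 was kept in all 8 fits by Fosb, Jun, Egr1, Atf3, Ier2 and Dusp1, in 7 by Fos, Junb and Zfp36, and in 6 by Klf6. Leaving out a library of ZT6 or ZT18 cannot change this difference, so those fits kept the direction by design. Fosb kept it at only -0.025 without ZT12 replicate 1.

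**Figure D5:**
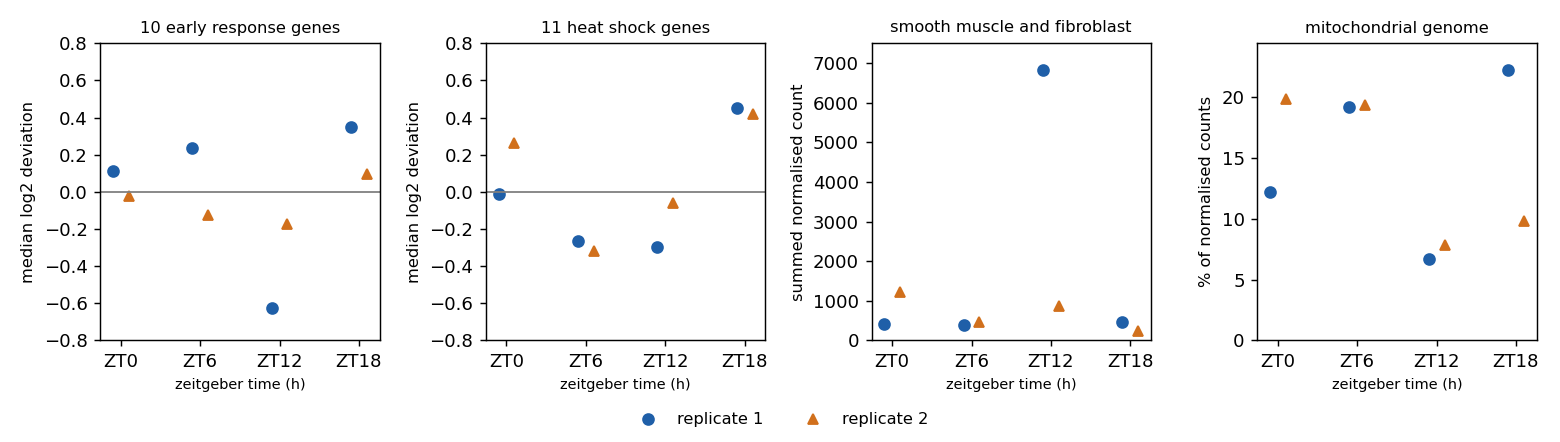
Values per library (circles, replicate 1; triangles, replicate 2) against zeitgeber time for, from left to right, the median log2 deviation of the 10 early response genes and of 11 heat shock genes from each gene's mean, the summed normalised counts of smooth muscle and fibroblast markers, and the mitochondrial share of the normalised counts. ZT12 replicate 1 has the lowest early response value, -0.62, and the highest stromal sum, while the heat shock genes are highest in both ZT18 libraries.

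Across the 8 libraries the genes were mostly positively correlated. Of the 45 pairs, 42 had a positive Pearson r, with a median of 0.53 and a range from -0.24 (Fosb with Egr1) to 0.89 (Jun with Ier2). In exact two-sided permutation tests 13 pairs had p under 0.05 and 0 after Benjamini-Hochberg adjustment over the 45 pairs, where the smallest adjusted p was 0.131 for Pearson's r and 0.196 for Spearman's rho. Jun and Ier2 had r = 0.89 (exact p = 0.00427, adjusted p = 0.131) and rho = 0.76 (exact p = 0.0368, adjusted p = 0.258), with r = 0.57 without the 2 libraries farthest from the median of Jun. Jun and Dusp1 had r = 0.85 (exact p = 0.0058, adjusted p = 0.131) and rho = 0.90 (exact p = 0.00456, adjusted p = 0.196), and r = 0.74 without the 2 libraries. Some other pairs turned negative without the 2 libraries farthest from the median of the gene named first. Atf3 and Ier2 went from 0.81 to -0.15, Fos and Fosb from 0.61 to -0.09, and Fos and Jun from 0.53 to -0.11. Dusp1 and Klf6 went from 0.83 to 0.77. When each value was expressed as its deviation from the mean of its time point, which leaves 4 independent differences, 44 of 45 pairs were positive with a median r of 0.63. All pairs share these 4 differences, and the same was not computed for pairs of other genes. Atf3 and Dusp1 had the highest median r with the other 9 genes, 0.72 and 0.71, and Junb the lowest, 0.13.

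By the same measure, the genes outside the 10 whose values followed the mean of the 10 z-scores most closely, among those with a mean of at least 50, were Jtb (r = 0.96), Golt1b (0.95), Rrp15 and Car15 (0.94), Nlrp9b (0.94), Ddx50, Pnpla1, Mrpl18, Fkbpl and 2210011C24Rik (0.93 each), over 8 libraries. None of these 10 was in a list of early response, stress or marker genes. Among the 10 early response genes themselves r ranged from 0.93 for Atf3, at rank 9 of the 11088 genes ranked, to 0.38 for Egr1, at rank 3072. Each of the 10 is itself part of that mean, which raises its r. Their ranks therefore cannot be compared with those of genes outside the 10.

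Other genes of the response were taken from lists. Of all 13503 genes tested, 7.03% had an unadjusted F-test p under 0.05. By direction, 51.4% were higher at ZT12 than at ZT0, 49.6% at ZT18 than at ZT0 and 48.0% at ZT18 than at ZT12. Of the partners of AP-1 and ATF, 12 of 16 were tested, 0 were called in the F-test, the cosine fit or a comparison, and 1 had an unadjusted F-test p under 0.05. Their median log2 difference of ZT12 from ZT0 was -0.01, against -0.45 for the 10 genes above. Fosl2, a FOS relative, had a log2 difference of 0.47 and Atf4, the main effector of the integrated stress response, one of -0.50, and Mafk -0.05, none passing the adjustment (limma adjusted p = 0.561, 0.427 and 0.951). Of 34 further early response genes 27 were tested and 0 called, with 6 at an unadjusted F-test p under 0.05. Of these 27, 5 were higher at ZT12 than at ZT0 (median -0.37) and 18 higher at ZT18 than at ZT12 (median 0.37). Klf4, a differentiation factor of the surface epithelium, Mcl1, an anti-apoptotic BCL2 relative, and Rhob, a small GTPase, had log2 differences of 0.27, 0.16 and -0.37 between ZT12 and ZT0.

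Of 20 feedback inhibitors (MAP kinase phosphatases, Sprouty and Spred proteins, NAB co-repressors, SOCS proteins and relatives of ZFP36), 19 were tested and 0 called, with 3 at an unadjusted F-test p under 0.05. Zfp36l2, Errfi1 and Tnfaip3 had log2 differences of -0.06, -0.13 and 0.18 between ZT12 and ZT0, and 15 of 19 inhibitors were higher at ZT18 than at ZT12 (median 0.22). The median deviation of the inhibitors was -0.21 in ZT12 replicate 1 and -0.04 in ZT12 replicate 2. In ZT18 replicate 1 it was 0.30 and in ZT18 replicate 2 -0.001. Of 21 upstream regulators, among them the kinases Mapk3, Rps6ka1 and Map2k1 and the factor Srf, 0 were called and 1 had an unadjusted F-test p under 0.05. Their medians lay between 0.00 and 0.12 for ZT6, ZT12 and ZT18 against ZT0.

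By limma, the calls among the lists of early response genes fell in that of genes which the clock or corticosteroids also drive. Per2, a clock repressor, had 487 and 716 normalised counts in the ZT0 libraries, 411 and 302 in those of ZT6, 2068 and 1692 in those of ZT12 and 1599 and 1923 in those of ZT18, and was called in the F-test (limma adjusted p = 0.0148) and the cosine fit (0.0123). Per1 rose by 2.07 on the log2 scale from ZT0 to ZT12 (limma adjusted p = 0.0269), and Sgk1, a corticosteroid-induced kinase, was called in the cosine fit (adjusted p = 0.0493), with values between 2622 at ZT6 and 9421 at ZT18. All 8 genes of that list were higher at ZT18 than at ZT0. As a reference, 7 of 8 clock genes were called in the F-test, so calls were made with 2 libraries per time point where differences were large against the spread: Dbp, for example, was higher at ZT12 than at ZT0 by 5.74 on the log2 scale (limma adjusted p = 0.000137), against the -1.09 of Egr1.

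Heat shock genes, which cell isolation is known to induce along with early response genes, were set beside them by library, with no test of the difference. None of the 11 was called, and 7 had an unadjusted F-test p under 0.05, against 7.03% of all genes. All 11 but Hspb1 were higher at ZT18 than at ZT12 (median 0.67), against 48.0% of all genes. Hspa8, Hsp90ab1 and Hsp90aa1 had log2 differences of 0.80, 0.67 and 0.94 between these time points (limma adjusted p = 0.515, 0.514 and 0.391). Their median deviation from each gene's mean was -0.01 and 0.26 in the ZT0 libraries, -0.26 and -0.32 in those of ZT6, -0.30 and -0.06 in those of ZT12 and 0.45 and 0.42 in those of ZT18. For the 10 early response genes it was, in the same order, 0.11 and -0.02, 0.23 and -0.12, -0.62 and -0.17, and 0.35 and 0.09.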

How the data were processed

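The deposited table holds, for each of 8 libraries of colonic crypt RNA, a signal, which the authors obtained as read counts per gene scaled by 1 size factor for each library. Per the labels and the methods of the study, reads were aligned with STAR to GRCm38 and tested with DESeq2. Annotation, counting and use of strand are not given in the sources used here, and the labels and the methods name different library kits. The table also holds, deposited by the authors and not used here, a log2 fold change and its standard error, a test score and p-value columns.

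Groups were taken from the labels. With limma 3.58.1 (R 4.3.3), log2(normalised count + 1) of the 13503 genes with a mean of at least 10, all 10 members among them, was fitted with 1 mean per time point in all 8 libraries (4 residual degrees of freedom; eBayes with trend). Fold changes are on that scale, which understates changes of low genes. The F-test, the 6 contrasts and a 24 h cosine and sine fit were adjusted by Benjamini-Hochberg over all genes, with 0.05 as the threshold. The value of 1 read was found from the gaps between low values and gave whole reads (100% within 0.1 of a whole number in each library), which were tested with edgeR 4.0.16 and DESeq2 1.42.0 as alternatives. The code was tested on simulated counts. Depth, at 14722342 reads or more, limits Fosb most, and counting SDs cover counting error only, since the reads have no molecular identifiers. Coordinates and exon lengths are from GENCODE M21 (GRCm38), promoters from RefSeq (GRCm38.p6). The members and lists were chosen with earlier results of these data known. All members are named; from other lists, called genes are named or otherwise up to 3 of the highest, and outside the lists the 10 genes most like the members, and clock genes besides Dbp only counted. Srf, Hspb1 and Dbp were named after their values were seen.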

Additional observations from a re-analysis of the deposited data

How the results depend on the processing

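The number of members called stayed at 0 in the F-test, the cosine fit and all 6 comparisons with TMM rescaling, scaling outside the mitochondrial genome, no filter, a mean of at least 50, pseudocounts of 0.1 and 5, eBayes without trend, edgeR, and without any 1 library (0 to 0). With DESeq2 the counts were 2, 1 and, for ZT12 against ZT0, 2, from log2 differences of -0.78 for Jun and -1.09 for Egr1. DESeq2 also called 218 of all genes over the 4 time points, 189 in the cosine fit and 137 for ZT12 against ZT0, against 12, 16 and 9 for limma. With the replicate block 0 members were called, and 8 of all genes in the F-test. Deviations of same-numbered libraries had r from -0.29 to 0.22 over the 6 pairs of time points. Such values cannot settle whether libraries of the same number share a batch, and the labels do not say. When each library was left out in turn, the difference of ZT12 from ZT0 ranged from -0.27 to 0.11 for Klf6, -0.74 to 0.027 for Fos, -0.057 to 0.36 for Junb and -0.019 to 0.28 for Zfp36, changing direction, and from -0.99 to -0.58 for Jun and -1.19 to -0.98 for Egr1. Members lower at ZT12 than at ZT6 ranged from 5 to 10. Leaving out ZT0 replicate 2 and ZT12 replicate 1 together, an alternative chosen after the data were seen, gave 5 lower at ZT12 than at ZT6 and a difference of 0.10 for Fos. Scaling outside the mitochondrial genome left 8 of 10 higher at ZT18 than at ZT12. The largest shift of the median of all genes by a scaling was -0.09. For each of the 10 genes the SD between the 2 libraries of a time exceeded the largest counting SD. What limits the number of calls was not tested.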
